A study of Mus musculus with 8 samples.

Results

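TSLP, IL-33, the type 2 cytokines IL-4 and IL-13, and the receptor chains that bind them were examined in RNA-Seq of mouse mammary tumors. The set holds 10 genes, taken by their symbols whatever their values: the cytokine genes Tslp, Il33, Il4 and Il13, and the receptor genes Crlf2, Il7r, Il1rl1, Il4ra, Il13ra1 and Il13ra2. All 10 were found among the 55414 gene identifiers of the count table. Of these, 8 had enough counts to be among the 14458 genes tested, and Il4 and Il13 did not. Il7r and Il13ra2 passed this filter through the calcipotriol group alone, so a higher level in that group was built into their being tested.

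The tumors grew from the PyMt cell line, derived from a tumor of the MMTV-PyMt mouse, a transgenic model in which a mammary promoter drives the polyoma middle T oncogene. The cells were placed in the inguinal fat pad of female WT mice of the C57BL/6 background, 6 to 8 weeks old. Of the 8 tumors, 4 were treated on the skin over the tumor with 20 nmol calcipotriol, a vitamin D analog, and 4 with its solvent EtOH, every 2 days from 2 days after implantation, and all were taken 24 hours after the last treatment. The study's methods describe injected cells with a nonsense control or an Il20rb guide RNA in general, without saying what the sequenced tumors carried. Both groups share the cell line, the strain, the solvent and the timing, and every tumor came from 1 cell line. The labels give the cell type as epithelial, whereas RNA was made from whole tumors. The keratin genes Krt8 and Krt18 averaged 592.9 and 558.0 CPM (counts scaled to library size) in EtOH-treated tumors, but the epithelial adhesion gene Epcam, chosen for mention after its values were seen, had 0, 0, 106 and 65 counts there and 38, 26, 398 and 536 counts with calcipotriol.

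TSLP is an alarmin, a cytokine that epithelial cells and some stromal cells release on damage or irritation. It signals through a receptor made of its own chain, encoded by Crlf2, and the IL-7 receptor alpha chain, encoded by Il7r. IL-33 is kept in the nucleus of epithelial, endothelial and stromal cells and acts, once released, through ST2, the product of Il1rl1. Both alarmins act on innate lymphoid cells, mast cells, dendritic cells and CD4+ T cells, which can then make IL-4 and IL-13. IL-4 and IL-13 share the IL-4 receptor alpha chain, encoded by Il4ra, which pairs with the Il13ra1 product on nonlymphoid cells and activates STAT6. The Il13ra2 product binds IL-13 with high affinity and is best known as a decoy.

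The library totals ran from 19685423 to 25084740 counts, so that 3 counts correspond to 0.119 to 0.146 CPM, a limit that covers counting error only. Over all genes, 155 were higher (1.07%) and 137 lower (0.948%) with calcipotriol past both thresholds. These were, in edgeR's quasi-likelihood test, a log2 fold change of 1 or more in either direction and an adjusted p (Benjamini-Hochberg) under 0.05. Calcipotriol replicate 1 stood apart: without it 642 genes passed in place of 292. Values of the members are given with and without it, and those of a list where it changes a count or moves the median by much. The controls also fell into pairs by their mean squared difference, given in units of the variance from counting. It was 41.9 for EtOH replicates 1 and 2 and 20.2 for 3 and 4, against 82 to 105.7 across the pairs. Replicates 3 and 4 were above 1 and 2 in Tslp, Il33, Il1rl1, Il4ra and Il13ra1. The tumors of a group are biological replicates in the study's methods, and the biological coefficient of variation of a typical gene was 0.347.

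The promoters of 3 genes that the results turn on are shown because Il33 had the highest level of the set, and because Il13ra1 and Il13ra2, the signaling and decoy receptors of IL-13, had the lowest adjusted p and the largest fold change. They were chosen after the values were seen. Of the 2 Il33 starts, the one whose window holds a STAT6 motif is shown, so the presence of that motif was fixed by the choice. Each is the RefSeq window of 300 bases, 250 before the transcript start and 50 from it on, 5′ to 3′ on the strand of the gene, in GRCm38.p6. Capitals mark the letters of a STAT6 motif (TTC and GAA with any 4 bases between them), a TATA motif (TATAAA) or an AP-1 motif (TGACTCA or TGAGTCA), searched on both strands.
Il33 (first of 2 starts, chr19:29924863-29925162, forward strand): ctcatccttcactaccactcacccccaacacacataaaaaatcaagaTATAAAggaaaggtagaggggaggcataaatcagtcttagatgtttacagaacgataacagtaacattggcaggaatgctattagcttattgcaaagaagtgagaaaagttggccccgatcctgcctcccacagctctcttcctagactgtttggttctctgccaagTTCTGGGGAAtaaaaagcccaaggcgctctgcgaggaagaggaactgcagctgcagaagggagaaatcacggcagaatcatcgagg
Il13ra1 (chrX:36111858-36112157, forward strand): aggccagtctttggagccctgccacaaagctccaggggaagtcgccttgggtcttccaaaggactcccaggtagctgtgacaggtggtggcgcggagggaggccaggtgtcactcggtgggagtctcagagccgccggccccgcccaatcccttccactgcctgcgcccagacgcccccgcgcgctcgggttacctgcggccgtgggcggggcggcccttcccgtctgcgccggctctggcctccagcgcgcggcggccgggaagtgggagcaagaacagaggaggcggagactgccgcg
Il13ra2 (chrX:147429143-147429442, reverse strand): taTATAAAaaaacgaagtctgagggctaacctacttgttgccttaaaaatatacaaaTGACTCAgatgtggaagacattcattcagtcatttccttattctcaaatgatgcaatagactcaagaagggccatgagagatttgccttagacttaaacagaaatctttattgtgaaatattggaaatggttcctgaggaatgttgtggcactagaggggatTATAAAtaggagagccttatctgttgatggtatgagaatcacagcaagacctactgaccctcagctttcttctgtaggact
The Il33 window, chosen for its STAT6 motif, holds that motif from 36 bases before the start on and a TATA motif 203 bases before it. The Il13ra2 window holds TATA motifs 31 and 248 bases before the start and an AP-1 motif 193 bases before it. The Il13ra1 window has no match to these motifs. The base composition also differs, with G and C making up 71% of the Il13ra1 window and 37.7% of the Il13ra2 window. A STAT6 motif is present in 6.95% of 32851 mouse promoters of this length, TATAAA in 13.6% and the AP-1 motif in 5.2%, and a match is a description of the letters only.

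In all, 12 promoter windows of 9 of the genes were searched, and the Tslp promoter was not among them. The STAT6 motif was also found in the window of the second Il4 start, but not in that of the second Il33 start. TATA motifs also lay 29 bases before the second Il33 start and 29 and 31 bases before the Il13 start. A STAT5 motif (TTCNNNGAA), whose letters are present in 8.3% of all promoters, lay 142 bases before the Il7r start and 4 bases before the first Il4 start. Half-sites of the vitamin D receptor (AGGTCA or GGGTCA, and likewise AGTTCA or GGTTCA), present in 43.7% of all promoters, were found in the windows of Il7r, the second Il1rl1 start and Il13ra2. The paired vitamin D receptor element, in which any 2 of these half-sites follow each other with 3 bases between them and which therefore overlaps the half-sites, was found in 0.0396% of all promoters and in none of these 12.

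Tslp was the only member past both thresholds, with a level about 3.53 times as high in calcipotriol-treated as in EtOH-treated tumors. Il13ra1 rose as well, by less than the fold change threshold. Il33, the member with the highest level, averaged 1.79 times its EtOH level but missed the adjusted p threshold with all 8 tumors. Il13ra2 had the largest fold change from almost no counts, and Crlf2 and Il4ra had log2 fold changes of -0.30 and 0.19. Thus 1 of the 8 members tested passed both thresholds in the higher direction, against 1.07% of all genes tested. In that direction 2 passed the adjusted p alone, against 1.37%. Without calcipotriol replicate 1, 2 passed both thresholds, Tslp and Il33. In 4 members, Tslp, Il7r, Il13ra1 and Il13ra2, all treated tumors were above all controls, which was so for 6.32% of all genes tested. Il7r and Il13ra2 entered the test through the calcipotriol group alone, which favored such a separation.

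**Figure D1:**
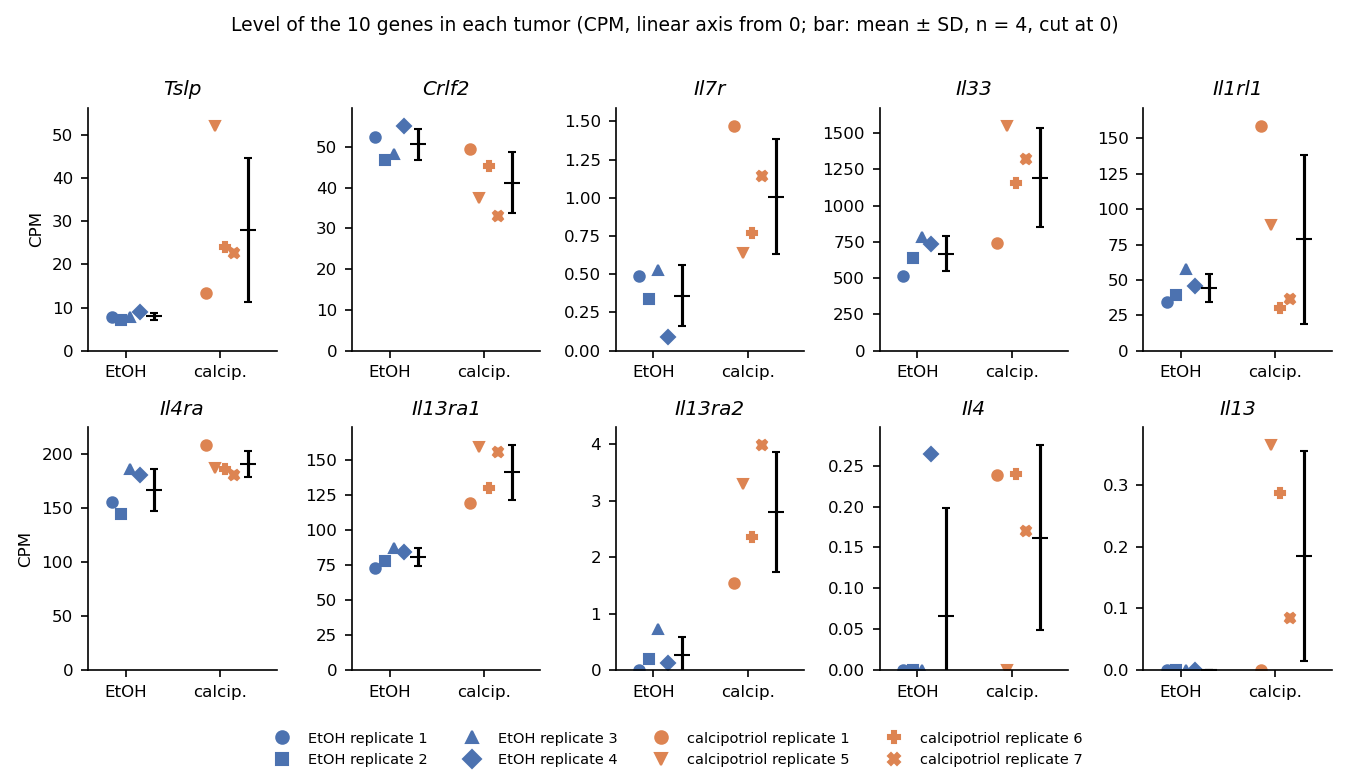
CPM of the 10 genes in each of the 8 tumors (y axis from 0, a scale of its own in each panel), with the mean and SD of each group beside the points (n = 4 tumors). The 4 calcipotriol-treated tumors lie above the 4 EtOH-treated tumors for Tslp, Il7r, Il13ra1 and Il13ra2, and Tslp and Il1rl1 are widely spread with calcipotriol.

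Tslp (ENSMUSG00000024379) is a forward-strand gene of chromosome 18 (32815383 to 32819797; all gene positions are in GRCm38). Its level in EtOH-treated tumors was 7.78, 7.11, 7.90 and 9.04 CPM in replicates 1 to 4. In calcipotriol-treated tumors it was 13.5, 52.2, 24.1 and 22.6 CPM in replicates 1, 5, 6 and 7. The EtOH-treated tumors were close together, whereas the calcipotriol-treated tumors were spread, with replicate 5 highest and replicate 1 nearest to the controls. The means were 7.96 ± 0.803 and 28.1 ± 16.7 CPM (SD, n = 4), and the log2 fold change was 1.82 with a standard error of 0.355 (edgeR's quasi-likelihood test, adjusted p = 0.0276). A two-sided exact permutation test of the log2 CPM gave p = 0.0286, the smallest that the 70 arrangements of these tumors allow. Without calcipotriol replicate 1 the log2 fold change was 2.05 (edgeR, adjusted p = 0.00365), and without replicate 5, the highest tumor, it was 1.33 (adjusted p = 0.037). In the other 6 fits that left out a tumor, Tslp missed the adjusted p threshold at log2 fold changes of 1.77 to 1.91 (edgeR, adjusted p 0.0523 to 0.0789). GENCODE M21 has a noncoding gene on the opposite strand over Tslp, 4930455D15Rik, whose counts were not used here. Whether the counting used strand is not given in the sources used here, so reads of the pair cannot be told apart.

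Both chains of the TSLP receptor were detected, at levels far apart. Crlf2 (ENSMUSG00000033467, reverse strand of chromosome 5, 109554709 to 109558993), which encodes the TSLP-binding chain, was at 52.3, 46.7, 48.3 and 55.1 CPM with EtOH. With calcipotriol it was at 49.3, 37.4, 45.2 and 33.0 CPM. The groups overlapped, with means of 50.6 ± 3.82 and 41.2 ± 7.40 CPM (SD, n = 4), and the log2 fold change of -0.30 (standard error 0.149) did not pass (edgeR, adjusted p = 0.323). Without calcipotriol replicate 1 it was -0.39 (edgeR, adjusted p = 0.161).

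Il7r (ENSMUSG00000003882, reverse strand of chromosome 15, 9505788 to 9530176), which encodes the chain shared with the IL-7 receptor and is known in lymphocytes, had 10, 7, 13 and 2 counts with EtOH. It had 37, 14, 16 and 27 counts with calcipotriol. The groups did not overlap, though replicates 5 and 6 were only just above the controls. The means were 0.361 ± 0.198 and 1.01 ± 0.376 CPM (SD, n = 4), and the log2 fold change of 1.47 (standard error 0.718) did not pass (edgeR, adjusted p = 0.309). The highest Il7r level was in calcipotriol replicate 1. Leaving this tumor out gave a log2 fold change of 1.23 (edgeR, adjusted p = 0.449). Marker genes of T cells also had their highest sum, 18.5 CPM over 12 genes, in this tumor, and in the other calcipotriol-treated tumors the sum was 5.13 to 8.09 CPM against 2.34 to 5.21 CPM with EtOH. In bulk tumors, a change in the number of cells of a type and a change in RNA per cell cannot be told apart, and the part of T cells in the Il7r level was not tested.

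Il33 had the highest level of all members, and it was higher with calcipotriol in 3 of 4 tumors. Il33 (ENSMUSG00000024810) is on chromosome 19, forward strand, from 29925114 to 29960718. Its level was 511, 641, 784 and 735 CPM with EtOH. With calcipotriol it was 742, 1549.5, 1158 and 1319.9 CPM. Calcipotriol replicate 1 lay inside the range of the EtOH-treated tumors, and the other 3 lay above it. The means were 668 ± 120.0 and 1192 ± 340.7 CPM (SD, n = 4), and the log2 fold change was 0.84 with a standard error of 0.226 (edgeR, adjusted p = 0.0813). Without calcipotriol replicate 1 the log2 fold change was 1.01 and passed both thresholds (edgeR, adjusted p = 0.0109). The adjusted p was also under 0.05, at a log2 fold change of 0.84, with no filter on low counts (edgeR, adjusted p = 0.0417) and with DESeq2 (adjusted p = 0.00488).

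Il1rl1 (ENSMUSG00000026069, forward strand of chromosome 1, 40429570 to 40465415) encodes ST2, the receptor that binds IL-33. It was at 34.2, 39.1, 57.5 and 46.0 CPM with EtOH. It was at 159, 88.8, 30.1 and 36.6 CPM with calcipotriol, so that 2 tumors were above all controls and the other 2 within or below their range. The means were 44.2 ± 10.1 and 78.6 ± 59.6 CPM (SD, n = 4), and the log2 fold change of 0.83 (standard error 0.453) did not pass (edgeR, adjusted p = 0.362). It rested largely on calcipotriol replicate 1, without which it was 0.23 (edgeR, adjusted p = 0.764). Counts per gene do not separate the membrane-bound from the soluble, decoy form of ST2.

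Il33 and Il1rl1 were ordered differently over the calcipotriol-treated tumors. Replicate 1 had the lowest Il33 level and the highest Il1rl1 level of the group. Replicates 6 and 7 had high Il33 levels with Il1rl1 at or below most controls.

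**Figure D2:**
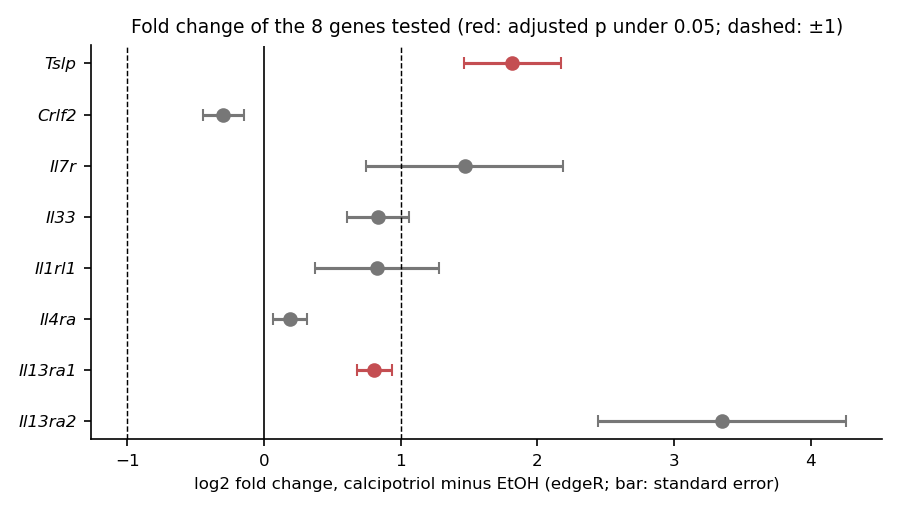
Log2 fold change of the 8 members tested, calcipotriol minus EtOH (x axis, edgeR; bars are standard errors, dashed lines mark -1 and 1). Tslp at 1.82 and Il13ra1 at 0.81 are the members with an adjusted p under 0.05, and Il13ra2 at 3.35 has the largest fold change and the largest standard error.

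The cytokines IL-4 and IL-13 were at the limit of detection. Il4, made by T helper 2 cells, mast cells and basophils, had 0, 0, 0 and 6 counts in EtOH-treated tumors and, overlapping with them, 6, 0, 5 and 4 counts in calcipotriol-treated tumors. Il13, made by T helper 2 cells and innate lymphoid cells, had 0 counts in all 4 EtOH-treated tumors and 0, 8, 6 and 2 counts in calcipotriol replicates 1, 5, 6 and 7. Over the group and scaled to library size, these 16 counts are 5.16 times the 3 counts that 0 counts in the EtOH group allow. That figure covers the counting error of the controls only, not that of the 16 counts or the spread between tumors. Neither gene had enough counts to be tested, and with no filter neither passed (edgeR, adjusted p = 0.766 for Il4 and 0.288 for Il13). A difference in Il4 was not detectable at this depth.

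Of the receptor chains for IL-4 and IL-13, the common chain Il4ra overlapped between the groups, whereas the IL-13-binding chains were higher in every calcipotriol-treated tumor than in any control. Il4ra (ENSMUSG00000030748, forward strand of chromosome 7, 125552120 to 125579474), the chain common to both cytokines, was at 156, 145, 186 and 181 CPM with EtOH. With calcipotriol it was at 209, 187, 186 and 181 CPM. The groups overlapped at 167 ± 19.8 and 191 ± 12.1 CPM (SD, n = 4), and the log2 fold change of 0.19 (standard error 0.123) did not pass (edgeR, adjusted p = 0.452). The overlapping gene on the opposite strand, Gm44876, had at most 12 counts in a tumor.

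Il13ra1 (ENSMUSG00000017057, forward strand of chromosome X, 36112110 to 36171259), the signaling partner of Il4ra, was at 72.7, 78.1, 86.8 and 84.6 CPM with EtOH. With calcipotriol it was at 119, 159, 130.3 and 156 CPM, so the groups were well apart and each was narrow. The means were 80.5 ± 6.42 and 141 ± 19.4 CPM (SD, n = 4). Il13ra1 rose by 0.81 on the log2 scale with a standard error of 0.131 (edgeR, adjusted p = 0.0137), under the fold change threshold. In each of the 8 fits that left out a tumor, the log2 fold change was 0.75 to 0.88 and the adjusted p was 0.00432 to 0.0476 (edgeR).

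Il13ra2 (ENSMUSG00000031289, reverse strand of chromosome X, 147383476 to 147429192), the decoy receptor, had 0, 4, 18 and 3 counts with EtOH. It had 39, 72, 49 and 94 counts with calcipotriol. Every calcipotriol-treated tumor was above every control, and EtOH replicate 3 held 18 of the 25 counts of its group. The means were 0.264 ± 0.321 and 2.80 ± 1.07 CPM (SD, n = 4). The log2 fold change of 3.35 (standard error 0.907) did not pass in edgeR (adjusted p = 0.0813). It passed both thresholds with DESeq2 (3.39, adjusted p = 0.00178) and, in edgeR, without EtOH replicate 3 (4.61, adjusted p = 0.0477), while without calcipotriol replicate 1 it was 3.55 (adjusted p = 0.0564).

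Ratios of receptor chains were taken from the counts of 1 tumor, so the library scaling does not enter them. Counts of Il13ra1 were 46.6%, 53.8%, 46.6% and 46.7% of those of Il4ra with EtOH. With calcipotriol they were 57.1%, 85.0%, 69.98% and 85.9%. The balance of the chains was thus shifted toward Il13ra1 in every calcipotriol-treated tumor, least in replicate 1, and the mean log2 ratio went from -1.05 ± 0.103 to -0.44 ± 0.278 (SD, n = 4), a difference of 0.61. The decoy also took a larger share relative to the signaling chain. Il13ra2 counts were at most 0.840% of Il13ra1 counts with EtOH and 1.3% to 2.56% with calcipotriol, a difference of 2.94 in the log2 ratio. Counts of Il7r were 0.160% to 1.09% of those of Crlf2 with EtOH and 1.70% to 3.47% with calcipotriol, a difference of 1.81 in the log2 ratio. For each of the 3 ratios, the groups did not overlap and the two-sided exact permutation test gave p = 0.0286, the smallest these 70 arrangements allow (adjusted p = 0.0286 over the 3 ratios). A log2 ratio was taken with 1 count added to each gene, and the last 2 ratios include Il13ra2 and Il7r, which passed the filter through the calcipotriol group alone.

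**Figure D3:**
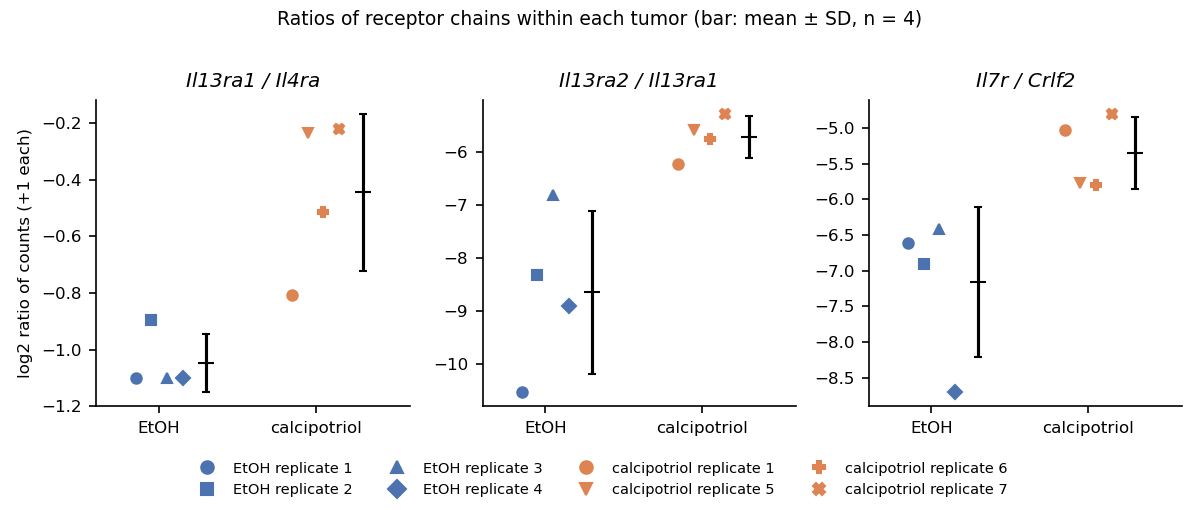
Log2 ratio of the counts of 2 receptor chains in each tumor (y axis, 1 count added to each gene), with the mean and SD of each group (n = 4 tumors). In all 3 panels the 4 calcipotriol-treated tumors lie above the 4 EtOH-treated tumors, with a mean difference of 0.61 for Il13ra1 to Il4ra, 2.94 for Il13ra2 to Il13ra1 and 1.81 for Il7r to Crlf2.

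Levels of different genes were compared per kilobase of exon. In EtOH-treated tumors Il33 led with 231 CPM per kb, followed by Crlf2 (33.9), Il4ra (27.8) and Il13ra1 (21.7), whose ranges over tumors did not overlap with that of the next gene. Il1rl1 (6.41) and Tslp (5.98) followed with overlapping ranges, and Il13ra2 (0.116), Il7r, Il4 and Il13 came last, again overlapping. With calcipotriol Il33 stayed first at 413 CPM per kb. Il13ra1 (38.0) came next, and from there through Il4ra (31.8), Crlf2 (27.6), Tslp (21.1) and Il1rl1 (11.4) the range of each gene overlapped with that of the next. Il13ra2 (1.23) and Il7r (0.216) followed apart from their upper neighbors, and Il13 and Il4 came last.

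The other genes of the pathways were read from lists, of which the median log2 fold change over all genes tested, 0.02, is the background. Of the TSLP and IL-7 pathway, with JAK and STAT genes, 11 of 11 listed genes were tested, none was higher or lower past both thresholds, and the median was 0.06. Its genes with the highest levels were Jak1, a kinase bound to the IL-7 receptor chain, at a log2 fold change of -0.42 (edgeR, adjusted p = 0.156), and Stat3, at 0.28 (adjusted p = 0.273). In the fit that left out calcipotriol replicate 1, 1 gene fell, Il2rg, the common gamma chain of the IL-7 and IL-4 receptors (-1.13; edgeR, adjusted p = 0.0162). Of the IL-33 and IL-25 pathway, 9 of 10 were tested with none past both thresholds and a median of -0.01. The signaling genes Irak1 and Map3k7, which act below ST2, had log2 fold changes of -0.11 and -0.07 (edgeR, adjusted p = 0.741 and 0.836). With calcipotriol replicate 1 left out, 1 gene fell, Sigirr, an inhibitor of IL-1 family receptors (-1.01; edgeR, adjusted p = 0.0475). Il25, a further alarmin gene chosen for mention after its values were seen, had 2 counts in all tumors together, both in calcipotriol replicate 6.

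The list named for the IL-4 and IL-13 pathway also holds genes of IL-3, IL-5, IL-9 and GM-CSF and of their receptors. Of its 16 genes 11 were tested, with a median log2 fold change of -0.40. Past both thresholds 1 was lower, against 0.948% of all genes, and it is not a chain of the IL-4 or IL-13 receptors. This was Csf2rb, the beta chain shared by the GM-CSF, IL-5 and IL-3 receptors, at 41.3 ± 3.83 CPM with EtOH and 16.2 ± 4.74 CPM with calcipotriol (SD, n = 4). It fell by 1.35 on the log2 scale (edgeR, adjusted p = 0.009) and also in each of the 8 fits that left out a tumor, though reads may be shared with its near-identical copy Csf2rb2. Stat6, the transcription factor of both cytokines, was at 128 ± 3.49 and 119 ± 12.6 CPM (SD, n = 4), which is a log2 fold change of -0.10 (edgeR, adjusted p = 0.688). Socs3, an inhibitor of JAK signaling, had a log2 fold change of -0.15 (adjusted p = 0.562). Leaving out calcipotriol replicate 1, 2 genes fell, Csf2rb and Ptpn6, a phosphatase (-1.05; edgeR, adjusted p = 0.0332). The type 2 cytokine Il9 and also Il3 had 0 counts in all 8 tumors.

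Genes listed as a response to IL-4 and IL-13, mostly in macrophages, held the largest fold changes of these lists. Whether each responded to these cytokines here was not tested. Of 24 listed genes 23 were in the annotation and 16 were tested. The median log2 fold change was 0.67, 10 were positive and 6 negative, and 4 rose past both thresholds, against 1.07% of all genes. Chil3, a chitinase-like protein of alternatively activated macrophages, had 47, 99, 589 and 571 counts in controls. With calcipotriol it had 1458, 42476, 5880 and 6582 counts. The highest control was below the lowest treated tumor, and replicate 5, which also had the highest Tslp level, was far above the rest. Chil3 rose by 5.50 on the log2 scale (edgeR, adjusted p = 0.0353), and without replicate 5 its log2 fold change was 3.87 and did not pass (adjusted p = 0.0633). Retnla, a secreted protein of the same macrophage state, rose by 4.43 from 0.639 ± 0.611 to 14.2 ± 7.55 CPM (SD, n = 4; edgeR, adjusted p = 0.0215). Retnla passed the count filter through the calcipotriol group alone, so its being tested already favored a rise. Ccl24, a chemokine for eosinophils, rose by 3.50 from 1.002 ± 0.480 to 11.4 ± 5.83 CPM (edgeR, adjusted p = 0.009). Cd163, a scavenger receptor of macrophages, rose by 1.87 from 30.6 ± 10.8 to 112 ± 40.7 CPM (edgeR, adjusted p = 0.0192).

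Other response genes did not pass. Arg1, an arginase that is a usual marker of the same macrophage state, was at 440.0 ± 165 and 405 ± 61.0 CPM (SD, n = 4), which is a log2 fold change of -0.12 (edgeR, adjusted p = 0.843). Postn, which encodes the matrix protein periostin, had a log2 fold change of -0.15 (adjusted p = 0.864). The count of 4 was 6 without calcipotriol replicate 1, with Chil4 and Clec10a added, and 1 to 4 without any other tumor, and limma-voom, with 1, passed Cd163 alone. Of the 8 fits that left out a tumor, Ccl24 passed both thresholds in 8, Retnla in 5, Cd163 in 3 and Chil3 in 1.

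**Figure D4:**
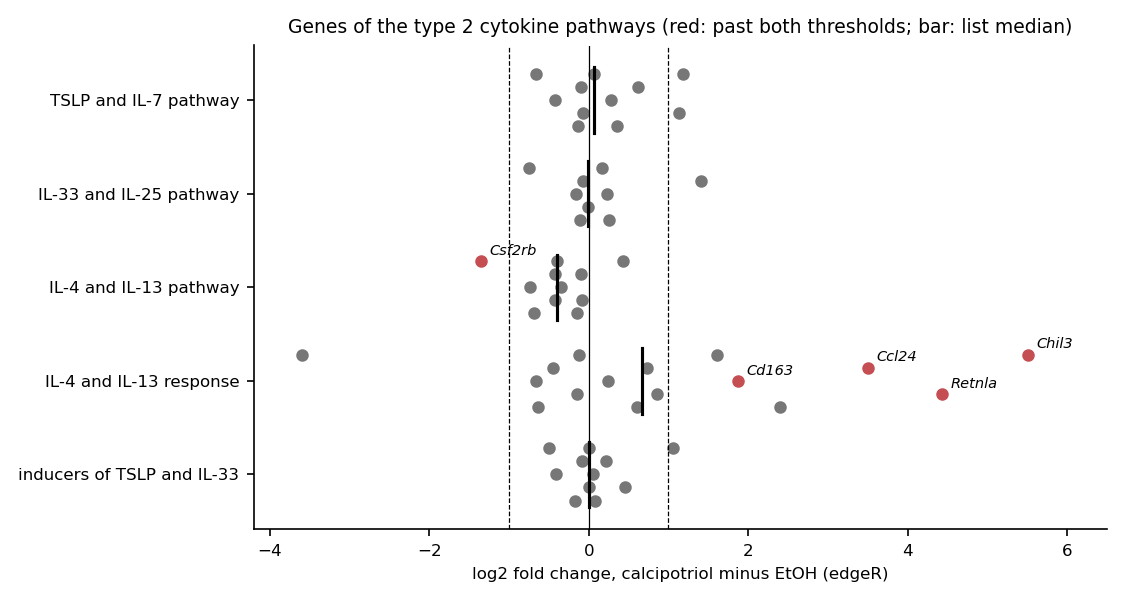
Log2 fold change, calcipotriol minus EtOH (x axis, edgeR), of each gene tested in 5 pathway lists (rows). Red points are past both thresholds, black bars are list medians and dashed lines mark -1 and 1. The 4 red points on the right are of the IL-4 and IL-13 response list, at 1.87 to 5.50, and Csf2rb on the left is at -1.35.

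Genes upstream of the alarmins were read in the same way. Of 11 genes that induce TSLP or IL-33, which include IL-1 and TNF with their receptors and NF-kB subunits, none passed, with a median of 0.01. The highest of them, Tnfrsf1a and Nfkb1, had log2 fold changes of 0.07 and -0.08 (edgeR, adjusted p = 0.821 and 0.759). Of the vitamin D response list, 4 of 9 were tested and none passed. The highest of them were Cd14 (-0.84) and Rxra (-0.34), the partner of the vitamin D receptor (edgeR, adjusted p = 0.0802 and 0.199). Vdr, the receptor of calcipotriol, was at 44.6 ± 18.6 and 74.1 ± 11.5 CPM (SD, n = 4), which is a log2 fold change of 0.73 (edgeR, adjusted p = 0.171). Cyp24a1, the enzyme that degrades vitamin D and a direct target of its receptor, had 0 counts in all EtOH-treated tumors and 0, 130, 36 and 52 counts in calcipotriol replicates 1, 5, 6 and 7. Without replicate 1, Cyp24a1 could be tested and passed both thresholds (edgeR, adjusted p = 0.00772). It entered that fit through the calcipotriol group alone, so its being tested already favored a rise. Vdr and Cyp24a1 were picked for mention after their values were seen. Calcipotriol replicate 1, without Cyp24a1 counts, had the lowest levels of Tslp, Il33, Il13ra1 and Il13ra2 in its group. It also had the highest levels of Crlf2, Il7r, Il1rl1 and Il4ra in that group.

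Markers of the cells that make or receive these cytokines moved in several directions beside the members. Of 11 genes of T helper 2 and innate lymphoid cells 6 were tested, and 1 rose past both thresholds, Rora, a nuclear receptor of innate lymphoid and many other cells (2.12, edgeR, adjusted p = 0.0258), which passed in 4 of the 8 fits that left out a tumor. The summed level of the list overlapped, at 135 to 210.0 CPM with EtOH and 180 to 225 CPM with calcipotriol, and its highest members, Areg (0.25) and Gata3 (0.24; edgeR, adjusted p = 0.691 and 0.423), are also made by epithelial cells. The prostaglandin synthase Hpgds fell as well without calcipotriol replicate 1 (-2.49; edgeR, adjusted p = 0.0053). Of 12 T cell markers 8 were tested and none passed. Their median log2 fold change was 1.51, and 0.37 without calcipotriol replicate 1, when 5 of 8 were positive. None of these 8 reached the filter level in all 4 controls. Of them 2, Cd2 and Lck, passed through the calcipotriol group alone, which favored a positive sign, and 6 passed through tumors of both groups. At counts this low the signs are not taken as evidence of a change. The highest of the list, Cd2 and Trbc2, had log2 fold changes of 1.14 and 0.60 (edgeR, adjusted p = 0.508 and 0.738). Eosinophils were not detectable by their granule proteins, since Prg2 and Ear6 had 0 counts in all tumors and Epx, mentioned after its values were seen, had 2 counts in 1 control. The only eosinophil marker tested was Alox15, which macrophages also make, at a log2 fold change of -3.60 (edgeR, adjusted p = 0.144). The mast cell and basophil markers summed to 48.4 to 75.4 CPM with EtOH and 25.2 to 74.0 CPM with calcipotriol, with 9 of 11 tested and none past the thresholds. The highest were Gata2 (-0.70) and Tpsb2 (-0.17; edgeR, adjusted p = 0.363 and 0.904), and without calcipotriol replicate 1 the growth factor receptor Kit fell (-2.06; edgeR, adjusted p = 0.0268). The dendritic cell markers summed to 15.4 to 22.1 CPM and 7.54 to 33.0 CPM, with 6 of 10 tested and none past the thresholds. The highest were Itgax (-0.45) and Zbtb46 (1.12; edgeR, adjusted p = 0.813 and 0.148), and Itgax fell without calcipotriol replicate 1 (-2.20; edgeR, adjusted p = 0.0179). The 6 B cell markers, none of which could be tested, summed to at most 2.69 CPM.

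Macrophage markers were lower with calcipotriol, with sums of 3518 to 4588 CPM and 1232 to 2628 CPM. Of the response genes that macrophages make, Chil3, Retnla and Cd163 were higher past both thresholds, whereas Mrc1, Clec7a, Alox15 and Arg1, named after their values were seen, had log2 fold changes of -0.45, -0.64, -3.60 and -0.12 and did not pass. All 11 macrophage markers had negative log2 fold changes, and 3, Adgre1 (-1.24), Csf1r (-1.64) and Lyz2 (-1.75), fell past both thresholds (edgeR, adjusted p = 0.0325, 0.0374 and 0.00683). Without calcipotriol replicate 1, which had the highest sum of its group, 8 fell, and without each of the other 7 tumors in turn 1 fell, Lyz2. The highest marker after Lyz2, C1qa, had a log2 fold change of -0.74 (edgeR, adjusted p = 0.165). Endothelial markers, of cells that can hold IL-33, summed to 166 to 382 CPM and 65.8 to 121 CPM, and 5 of 9 fell, against 0.948% of all genes, among them Kdr (-1.75) and Robo4 (-2.19; edgeR, adjusted p = 0.00384 and 0.0134). Kdr and Robo4 fell in each of the 8 fits that left out a tumor, while the count of 5 ranged from 2, without EtOH replicate 2 or calcipotriol replicate 5, 6 or 7, to 6, without calcipotriol replicate 1. It was 3 without EtOH replicate 1. The most abundant marker, Cdh5, had a log2 fold change of -1.46 (edgeR, adjusted p = 0.126). Of the 9 fibroblast markers, of cells that can also hold IL-33, all were tested and none passed, and the sums overlapped at 4867 to 5396 CPM and 3596 to 6412 CPM. The highest, Col3a1 and Dcn, had log2 fold changes of -0.52 and 1.23 (edgeR, adjusted p = 0.235 and 0.136), and Dcn rose without calcipotriol replicate 1 (1.52; edgeR, adjusted p = 0.008).

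Epithelial cells are a known source of TSLP and IL-33. The 9 epithelial markers summed to 1013 to 1322 CPM with EtOH and 601 to 901 CPM with calcipotriol. Most of these sums came from Krt8 and Krt18, at means of 592.9 and 558.0 CPM with EtOH and 368.6 and 293.0 CPM with calcipotriol. Of the 7 markers tested, 5 had positive log2 fold changes and 2 negative ones, with a median of 0.45. Of the 7 tested, Cldn3, a tight junction protein, rose past both thresholds (3.93; edgeR, adjusted p = 0.00655) and did so in each of the 8 fits that left out a tumor, though it passed the count filter through the calcipotriol group alone, as did Epcam, Krt19 and Krt7. Krt18 fell by 0.93 on the log2 scale with an adjusted p of 0.0162 (edgeR), under the fold change threshold. When calcipotriol replicate 1 was left out, Krt18 also passed the fold change threshold (-1.02), and so did Krt7 in the other direction (4.71; edgeR, adjusted p = 0.00586 and 0.0413). Keratinocyte markers, of the skin over the tumor, summed to 12.0 to 16.2 CPM with EtOH and to 8.22, 19.8, 72.1 and 57.4 CPM in calcipotriol replicates 1, 5, 6 and 7. Of 11 such markers 5 were tested and Krt14, a basal keratin, rose past both thresholds (5.17; edgeR, adjusted p = 0.0336). This call was lost with limma-voom and in 7 of the 8 fits that left out a tumor, all but that without calcipotriol replicate 1, and Krt14 reached the filter level in all 4 treated tumors but 3 controls. Lor, of the outer skin layer and the highest of the list with EtOH, had a log2 fold change of -1.01 (edgeR, adjusted p = 0.246). Krt5, the partner of Krt14, had one of -0.27 (edgeR, adjusted p = 0.927). Flg and Dsg1a, of differentiated skin, had 0 counts in all tumors. Sbsn had a log2 fold change of 2.51 (edgeR, adjusted p = 0.0817) and reached the filter level in 3 controls. Without calcipotriol replicate 1 it passed both thresholds (2.815; edgeR, adjusted p = 0.0255), so 2 markers rose. Krt16, not tested, had 0 counts in controls and 31, 1, 19 and 9 counts in calcipotriol replicates 1, 5, 6 and 7. Krt5, Sbsn and Krt16 were picked for mention after their values were seen. In calcipotriol replicates 1, 5, 6 and 7, Tslp was at 13.5, 52.2, 24.1 and 22.6 CPM beside keratinocyte sums of 8.22, 19.8, 72.1 and 57.4 CPM. The part of any of these cell types in the levels of Tslp, Il33 or the receptors was not tested.

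**Figure D5:**
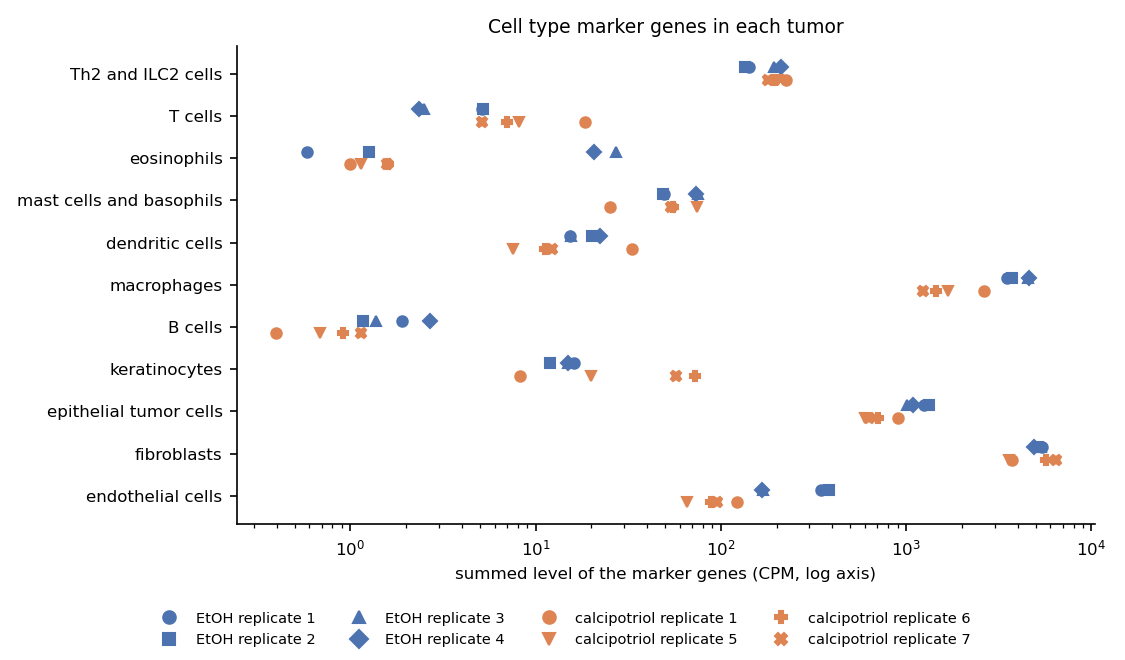
Summed CPM of the marker genes of 11 cell types (rows) in each tumor (x axis, log scale). Macrophage, endothelial, epithelial and B cell sums of the calcipotriol-treated tumors lie below those of the EtOH-treated tumors, at 1232 to 2628 against 3518 to 4588 CPM for macrophages, and the other sums overlap. The epithelial sums are mostly Krt8 and Krt18.

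The genes whose profile over the 8 tumors was nearest to that of a member were found by the root mean square difference of log2 CPM, each gene centered on its mean. For Tslp, whose own profile had a root mean square of 0.960, these were Dusp2 (0.327), Rangrf (0.357), Dnah17 (0.361), Grk5 (0.369) and Cdon (0.379). For Il33, with 0.517, they were Cdca7l (0.154), Exosc1 (0.165) and Btbd10 (0.165). For Il1rl1, with 0.762, they were Fez1 (0.322), Ero1l (0.330) and Ntng2 (0.332), and for Il13ra2, with 1.91, Cyp1b1 (0.522), Ugt1a6a (0.537) and Dnajc22 (0.559). No other member was among the nearest profiles of any of these 4 genes, and with 8 tumors in 2 groups such a ranking largely follows the difference between groups and its spread.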

How the data were processed

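RNA from 4 EtOH- and 4 calcipotriol-treated tumors was sequenced, and the authors deposited an estimated (expected) count per gene and tumor, with no scaling between tumors; 4.2% to 6.22% of the values were not whole. The submitters' processing notes name STAR 2.5.3, RSEM 1.3.1, DESeq2 1.24.0 and GRCm38, without their roles. The labels name a different sequencer from the paper. The sources used here do not give the annotation release.

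The deposited estimated counts were rounded before the fit, which was the plan for estimated counts. Identifiers were matched to GENCODE M21 (52081 of 55414 had a symbol), and those without a symbol, 0.313% to 1.99% of the counts, stayed in the fit. The table has 0 columns of other samples. Groups came from the labels. The comparison used edgeR 4.0.16 under R 4.3.3 (filterByExpr, TMM, quasi-likelihood test, Benjamini-Hochberg adjustment over 14458 genes), with a prior count of 2 for log2 CPM. Genes were called at an adjusted p under 0.05 with a log2 fold change of 1 or more in either direction. Ratios and Tslp were also compared with exact permutation tests over samples. Tumors of a group differed by 20.2 to 133.5 times counting error, more than repeats of 1 library would. Intervals and floors cover counting error only. The scripts were tested on simulated data.

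The members and the 17 gene lists were chosen with earlier results of these data known. Named genes are the members, list genes past both thresholds (the 4 lowest p where there are more), the 2 highest of each list, list genes at 0 and the nearest profiles, and others named are said to have been picked after their values were seen or appear only in counts without a tumor. Alternatives were other size factors, filters, DESeq2 1.42.0, limma-voom (limma 3.58.1), glmTreat, no fold change minimum (added after seeing the data) and each tumor left out. Promoters and motifs came from RefSeq windows.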

Additional observations from a re-analysis of the deposited data

Results flagged for a closer look

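In 26 groups of 4 tumors, 2 had a single tumor far from the other 3 by Dixon's criterion at the 5% level, and chance alone gives about 1.3, or 1 in 20 groups. In Il4, EtOH replicate 4 was at 0.265 CPM, which is 6 counts, while the other 3 EtOH-treated tumors were at 0. In the log2 ratio of Il13ra1 to Il4ra, EtOH replicate 2 was at -0.90, while the other 3 EtOH-treated tumors were at -1.10, and it still lay below all 4 calcipotriol-treated tumors.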

How the results depend on the processing

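No paired analysis was possible because the groups share only replicate number 1. The 292 genes past both thresholds became 458 with no filter on low counts, 644 with DESeq2, 22 with glmTreat, which tests against the fold change threshold itself, and 113 to 642 when each tumor was left out, the highest without calcipotriol replicate 1. The count of 1 member past both thresholds became 2 with DESeq2 (Tslp and Il13ra2), 0 with limma-voom, 0 with glmTreat, 2 with no fold change minimum (Tslp and Il13ra1; chosen after seeing the data) and 0 to 2 when each tumor was left out. Tslp kept its direction throughout but missed the adjusted p threshold with limma-voom (log2 fold change 1.62, adjusted p = 0.0679) and glmTreat (1.82, adjusted p = 0.476), and its log2 fold change was 1.33 to 2.05 when each tumor was left out. The differences in log2 ratio were then 0.53 to 0.73 for Il13ra1 to Il4ra, 2.31 to 3.55 for Il13ra2 to Il13ra1 and 1.297 to 2.06 for Il7r to Crlf2. Their adjusted p was 0.0429 to 0.0571 (exact permutation test). The adjusted p threshold was missed in 6 of these 8 comparisons for Il13ra1 to Il4ra, in 4 for Il13ra2 to Il13ra1 and in 2 for Il7r to Crlf2. None of the 8 members tested changed direction under any of these alternatives or with other size factors, library totals or count filters, except that Il7r and Il13ra2 could not be fitted with at least 10 counts in every tumor. The causes of the other changes were not tested. Library totals without TMM moved the median log2 fold change of all genes from 0.02 to 0.10, with 175 genes higher and 94 lower in place of 155 and 137. Il13, Il4, Il7r and Il13ra2 are limited by depth.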

Other observations

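The IL-17 receptor genes that also serve IL-25 were examined beside the alarmins, since IL-25 acts with TSLP and IL-33 on innate lymphoid cells. Il17rb, the chain that binds IL-25, had 7, 0, 20 and 9 counts in controls and, overlapping with them, 6, 20, 26 and 42 counts in calcipotriol-treated tumors (log2 fold change 1.41, edgeR, adjusted p = 0.491). Il17ra, its partner, had a log2 fold change of -0.16 (edgeR, adjusted p = 0.625). Cish, which encodes an inhibitor induced by STAT5 downstream of the TSLP and IL-7 receptors, was at 12.8 ± 5.80 CPM with EtOH and 28.2 ± 5.36 CPM with calcipotriol (SD, n = 4), with groups that did not overlap (log2 fold change 1.13, edgeR, adjusted p = 0.0821). Clec10a, a lectin of alternatively activated macrophages and dendritic cells, had 21, 21, 124 and 152 counts in controls and 251, 303, 527 and 561 counts in calcipotriol-treated tumors (log2 fold change 2.40, edgeR, adjusted p = 0.0654). These genes were picked after their values were seen.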
